A study of Mus musculus with 12 samples.

Results

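The response of mouse peritoneal macrophages to lipopolysaccharide (LPS, a component of the outer membrane of Gram-negative bacteria) was compared between cells labelled wild type and cells labelled Ythdf1 knockout. All 12 libraries of the series entered the comparison, 3 in each of 4 groups. For each gene, the change from PBS to LPS in the WT libraries was subtracted from the same change in the KO-labelled libraries. This difference is called the interaction here and is given on the log2 scale, so that an interaction of 1 means that the LPS to PBS ratio was doubled under the KO label. It could be tested for 12064 of the 16920 genes in the deposited tables. The WT PBS and WT LPS groups came from wild-type C57BL/6 mice, and the KO PBS and KO LPS groups from mice carrying the label Ythdf1-/- on the same background. Elicited peritoneal cells were plated, kept overnight and then given PBS or LPS at 1 µg/mL for 6 h. For the eliciting agent, starch broth is given in one source and thioglycollate in the other (the record of the series and the study's methods). The labels call the samples of a group independent biological replicates without saying whether each was a separate mouse, so p-values measure the spread between these libraries.

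LPS is sensed by Toll-like receptor 4 (TLR4) with its co-receptors CD14 and MD-2. From there, the adaptor MyD88 leads to NF-κB and AP-1, which switch on cytokine and chemokine genes, while the adaptor TRIF leads to interferon beta, which acts back on the cell through its receptor and induces antiviral genes. Macrophages also turn off many genes in the same hours, among them genes of growth, lipid handling and lineage identity, and they induce inhibitors such as A20 and SOCS3 that limit the response. YTHDF1 is a cytosolic protein that binds N6-methyladenosine (m6A), a methyl mark on mRNA.

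The promoters of the chemokines Cxcl1 and Cxcl3, which had the largest interactions among induced genes above the floor in every group and at 5 CPM or more in the highest, are shown because they carry a motif of NF-κB. Each stretch is the reference sequence of RefSeq, build GRCm38.p6, from 250 bases before to 50 bases after the start of transcription, with the motif (GGG and TTTCC with any 2 bases between them) on either strand in capitals. That of Cxcl1 lies at chr5:90890995-90891294 and that of Cxcl3 at chr5:90785851-90786150, both on the plus strand.
Cxcl1: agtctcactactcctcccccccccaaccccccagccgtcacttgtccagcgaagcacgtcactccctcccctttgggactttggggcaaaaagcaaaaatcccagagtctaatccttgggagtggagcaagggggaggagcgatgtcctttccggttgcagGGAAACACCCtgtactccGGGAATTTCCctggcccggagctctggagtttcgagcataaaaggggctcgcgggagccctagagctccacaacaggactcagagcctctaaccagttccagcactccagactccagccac
Cxcl3: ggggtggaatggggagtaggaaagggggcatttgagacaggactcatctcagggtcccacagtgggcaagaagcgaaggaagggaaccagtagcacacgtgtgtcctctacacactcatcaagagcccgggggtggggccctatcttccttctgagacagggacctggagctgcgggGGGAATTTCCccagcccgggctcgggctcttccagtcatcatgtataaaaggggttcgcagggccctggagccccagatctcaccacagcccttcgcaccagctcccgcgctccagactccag
The motif begins 89 and 71 bases before the start in Cxcl1 and 73 bases before it in Cxcl3. It occurred in 1.90% of all 27025 genes with a promoter in the table, in 2.06% of the 9651 of these that were tested here, in 3.40% of the induced genes and in 4.46% of the 448 induced genes with a larger rise under the KO label. The interferon response motif, GAAA repeated after any 2 bases, was found in 3.99% of all genes, 4.06% of those tested, 9.20% of the induced genes and 14.1% of the same 448. The motif of AP-1, TGANTCA, was found in 8.97% of all genes, 6.46% of those tested, 9.26% of the induced genes and 10.7% of the 448. Among 92 genes with a smaller rise, the shares were 3.26% for NF-κB, 6.52% for the interferon motif and 2.17% for AP-1. A match is a string of letters in this window and not a measured binding site.

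Several features of the libraries bear on the values that follow. Library totals ran from 21546274 to 22017005 counts. Levels are given as CPM, the read count scaled for library size and composition, and a group mean of 3 counts or fewer, equal to 0.105 to 0.187 CPM depending on the library, was taken as the floor. Ythdf1 mRNA was not lower in the KO-labelled libraries. It measured 43.6, 44.97 and 41.9 CPM in WT PBS and 55.4, 58.1 and 58.1 CPM in KO PBS, then 212, 198 and 194 CPM in WT LPS against 196, 192 and 205 CPM in KO LPS. The counts sum over the whole gene, so a short deletion would not be seen in them, and the genotype rests on the labels. WT LPS replicate 1 stood apart from the other WT LPS libraries, with a mean chi-square per gene of 33.6 and 26.2 against them and 3.09 between them. Transcripts of skeletal muscle, summed over 10 markers, lay between 21.1 and 40.7 CPM in 8 libraries but between 1.29 and 3.83 CPM in KO PBS replicate 3 and the 3 KO LPS libraries. Counts of the muscle actin Acta1 were 202, 272 and 1 in KO PBS and 1, 1 and 3 in KO LPS, against 260 to 312 in the 6 WT libraries. Fibroblast markers summed to 75.1 to 132 CPM in WT and 32.9 to 69.5 CPM under the KO label, and markers of resident peritoneal macrophages to 80.0 to 95.6 and 43.1 to 49.8 CPM. Neutrophil markers summed to 102 to 107 CPM in WT PBS and 168 to 173 CPM in KO PBS, then 502 to 544 CPM in WT LPS and 648 to 689.9 CPM in KO LPS, with no overlap between the labels at either end. Most of these sums was Csf3r, the receptor of granulocyte colony-stimulating factor, which macrophages also express, while 4 of the 8 markers in the tables (S100a9, Elane, Mpo and Retnlg) were at or under the floor in all libraries. T cell markers summed to 2.82 to 3.36 CPM in WT PBS and 2.34 to 2.77 CPM in KO PBS, then 10.6 to 14.2 CPM in WT LPS and 5.09 to 5.88 CPM in KO LPS. The kinase Lck made up most of the LPS sums, with counts of 145, 228 and 167 in WT LPS and 65, 69 and 59 in KO LPS, while 3 of the 7 (Cd3e, Cd3d and Cd3g) were at or under the floor in all libraries. The sums were 0.498 to 1.99 CPM for 7 B cell markers and 0.175 to 3.56 CPM for 5 mast cell markers, of which 2 and 4 were at or under the floor in all libraries. All 10 general macrophage markers were above the floor. The part of other cells in the results below was not tested.

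The interaction was called for 2176 genes, or 18.0% of those tested, at an adjusted p below 0.05 in edgeR. It was more positive under the KO label for 1180 genes (9.78%) and more negative for 996 (8.26%). At an interaction of more than 1 there were 186 and 139. The balance of both directions depended on how libraries were scaled. More positive genes made up 54.2% of the calls with TMM (the trimmed mean of M values), 49.7% with the RLE scaling, 43.1% with the upper quartile and 24.4% with library totals alone, which moved the median interaction of all genes by -0.14. Of the 2176 genes, 1623 were also called with totals alone. A change of scaling moves all interactions by a similar amount, so that 0 of these had the opposite sign carries little weight. Without KO PBS replicate 2, 738 genes were called as more positive.

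**Figure D1:**
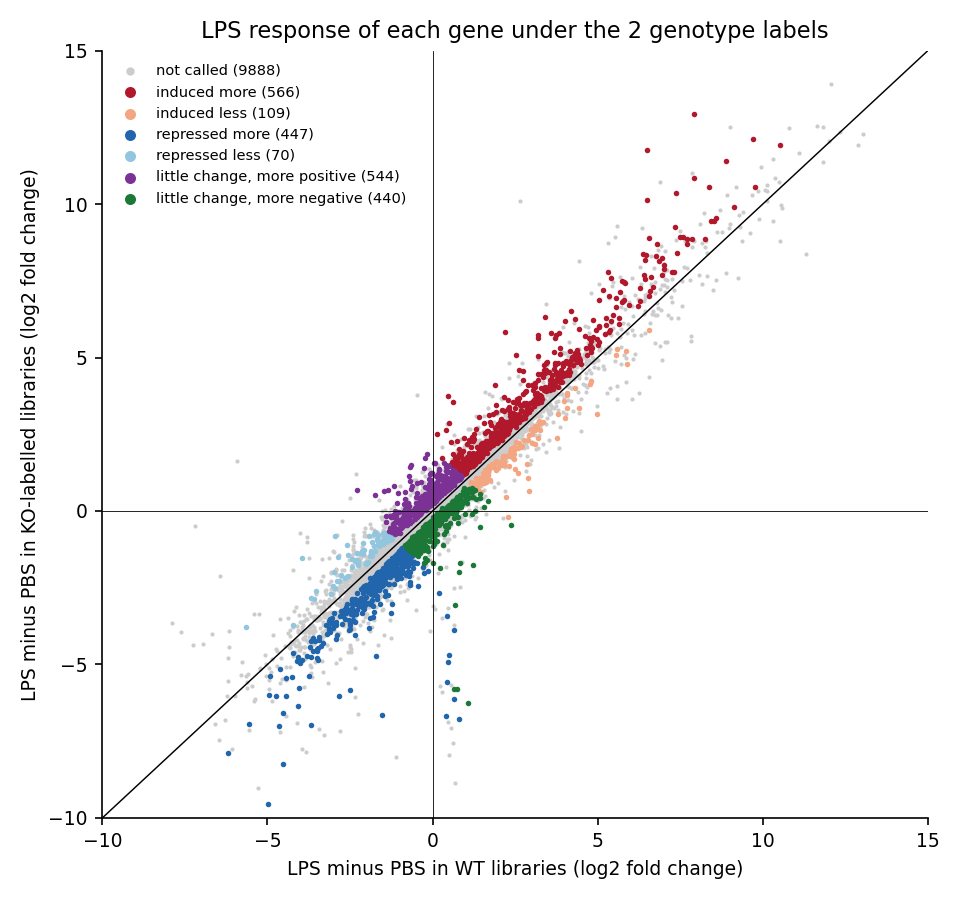
LPS response of each of the 12064 genes tested in the WT libraries (x axis) and in the KO-labelled libraries (y axis), both as log2 fold change from PBS. Points on the diagonal have equal responses. Of the coloured points with a called interaction, 566 are induced genes above the diagonal and 447 repressed genes below it. Genes with little average change make up 544 points above it and 440 below it. The column of points near 0 to 1 on the x axis that falls far below the diagonal includes the muscle transcripts.

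Genes were sorted into classes by their average response over both labels, which does not use the interaction. A gene counted as induced when the average was called and at least 1 on the log2 scale (2197 genes), as repressed when it was called and at most -1 (2507 genes), and as little changed otherwise (7360 genes). Among induced genes, 566 (25.8%) rose more under the KO label and 109 (4.96%) rose less. Among repressed genes, 447 (17.8%) fell more and 70 (2.79%) fell less. Both shares can be read against 9.78% and 8.26% over all genes tested. The median interaction was 0.22 for the induced genes, -0.26 for the repressed genes and 0.02 for the rest. Genes with a larger response under the KO label were thus more frequent than genes with a smaller one at both ends. With library totals alone, 285 induced genes rose more and 116 rose less, and 1273 repressed genes fell more and 88 fell less, which leaves the same order.

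The share of calls rose with the size of the response. Of 1015 genes with an average response from 1 to 2, 20.2% had a more positive interaction, against 27.7% of 745 genes from 2 to 4 and 35.3% of 439 genes at 4 or more. The median interaction of these bins was 0.15, 0.23 and 0.53. On the other side, 16.8% of 1589 genes between -2 and -1, 18.8% of 802 genes between -4 and -2 and 23.2% of 142 genes below -4 had a more negative interaction, with medians of -0.21, -0.37 and -0.61. The opposite call was made for 2.05% of the genes at 4 or more and for 0.704% of those below -4. Several libraries moved with these bins. In the bin at 4 or more, KO PBS replicate 3 lay above both other KO PBS libraries for 55.8% of the genes, and WT LPS replicate 1 lay below both other WT LPS libraries for 50.6%. Without these 2 libraries, 2503 genes were called, and 687 induced genes rose more and 411 repressed genes fell more.

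**Figure D2:**
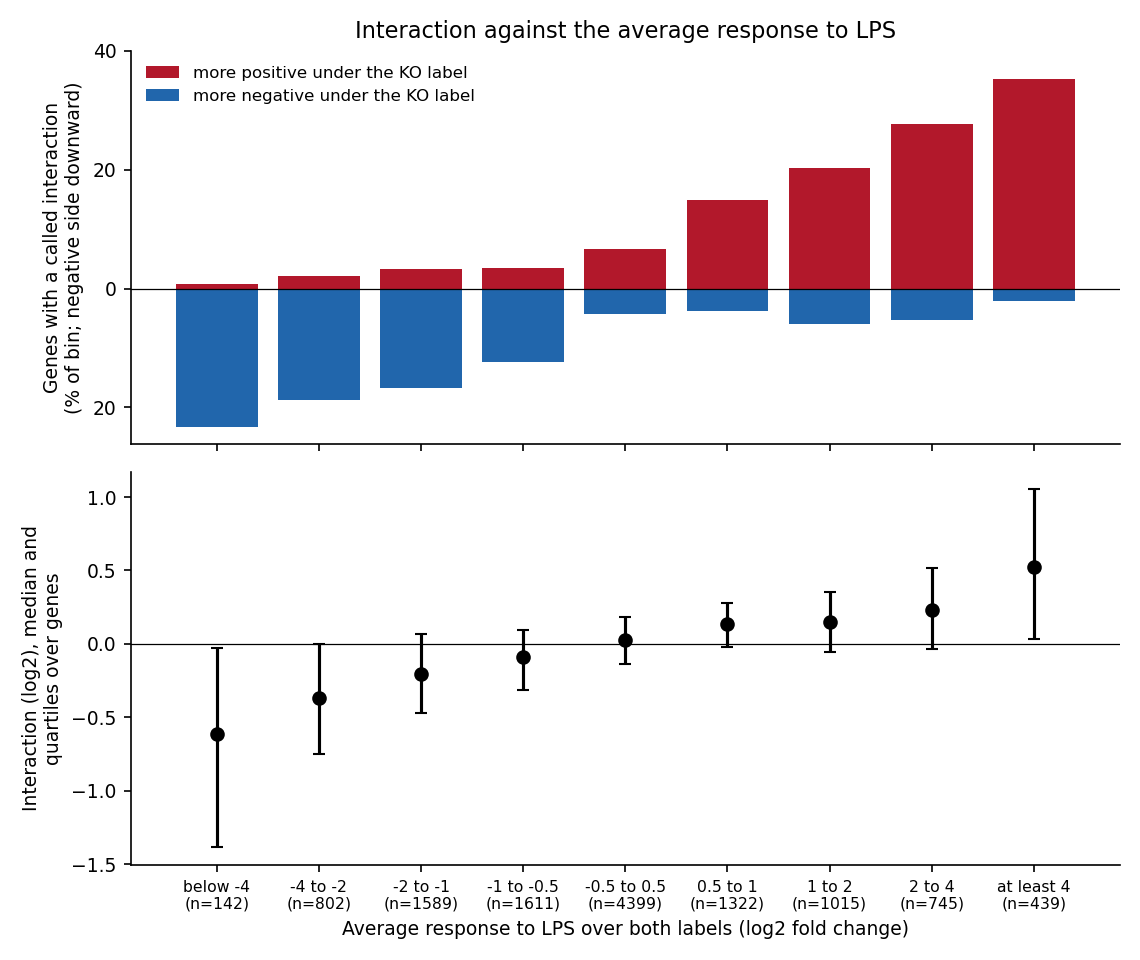
Top, percentage of genes with a called interaction in bins of the average LPS response, with more positive calls drawn upward and more negative calls downward. Bottom, median interaction (log2) in the same bins with quartiles over genes as bars. The percentage of more positive calls reaches 35.3% at the right and that of more negative calls 23.2% at the left.

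A larger response can come from either end of it, since a gene may be lower with PBS or higher with LPS. Of the 566 genes that rose more, 283 differed between the labels under LPS only, 123 under PBS only, 157 under both and 3 under neither. Of the 157, 102 were lower under PBS and higher under LPS by the KO label. Over all genes tested, 12.3% were higher and 1572 genes (13%) lower by the KO label under PBS, and 22.1% higher and 19.3% lower under LPS. The median rise of the 566 genes was 4.82-fold in WT and 7.59-fold in KO-labelled libraries. Of the 447 genes that fell more, 281 differed under LPS only, 66 under PBS only and 86 under both, and the median responses were -1.38 in WT and -2.10 under the KO label. The 109 genes that rose less had medians of 2.21 and 1.63, and the 70 that fell less -1.94 and -1.30. In each of these 4 groups, a difference seen with LPS alone was the most frequent case (58 of the 109 and 34 of the 70).

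Cxcl1 is a chemokine that draws neutrophils (gene 14825, chromosome 5 from 90891245 to 90893121, GRCm38.p6). Of induced genes that rose more, above the floor throughout and at 5 CPM or more in the highest group, it had the largest interaction. It measured 1.41, 1.25 and 1.18 CPM in WT PBS and 108, 111 and 127 CPM in WT LPS. In KO-labelled libraries it measured 0.700, 1.09 and 1.06 CPM with PBS and 1144, 1084 and 1029 CPM with LPS. The LPS libraries did not overlap, the KO-labelled ones all being higher. The response was 6.49 in WT and 10.15 under the KO label, an interaction of 3.66 ± 0.21 (SE, adjusted p = 2.88e-08). Cxcl3, which acts on the same receptor, rose from 0.687, 0.501 and 1.04 to 144, 103 and 124 CPM in WT and from 0.210, 0.176 and 0.638 to 479, 460.3 and 437 CPM under the KO label. The PBS libraries overlapped through KO PBS replicate 3, the LPS libraries did not, and the interaction was 3.004 ± 0.50 (SE, adjusted p = 0.00123). Steap4, a metalloreductase, differed at the PBS end. It measured 0.759, 0.930 and 1.43 CPM in WT PBS and 0.105, 0.281 and 0.213 CPM in KO PBS, while its LPS libraries overlapped at 4.63, 6.55 and 7.05 CPM in WT and 7.12, 5.69 and 7.96 CPM under the KO label. Its interaction was 2.54 ± 0.46 (SE, adjusted p = 0.00121).

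The chemokine Ccl5, which attracts T cells and monocytes, showed both patterns. It measured 8.35, 8.76 and 7.86 CPM in WT PBS and 1.37, 1.61 and 3.12 CPM in KO PBS, and with LPS 3722, 4066 and 4116 CPM in WT and 5474, 5808 and 5169 CPM under the KO label. KO PBS replicate 3 was the highest of its group but still below each WT library. The interaction was 2.50 ± 0.22 (SE, adjusted p = 7.92e-06). Phlda1, a pleckstrin homology-like protein induced by many stimuli, rose from 4.30, 3.61 and 3.82 to 41.2, 32.4 and 34.97 CPM in WT and from 2.17, 1.93 and 2.09 to 107, 108 and 94.2 CPM under the KO label, with an interaction of 2.43 ± 0.17 (SE, adjusted p = 1.54e-07). The calls of these 5 genes passed under each alternative tried. Csf3, the granulocyte colony-stimulating factor, had a fitted interaction of 5.26 that is no bound, because KO PBS held 0 to 0.0354 CPM, under the floor. Its LPS libraries measured 24.6, 22.3 and 25.8 CPM in WT and 108, 104 and 89.5 CPM under the KO label. Slc1a2, a glutamate transporter, and Il4i1, an amino acid oxidase, also had a group at the floor, with fitted values of 2.93 and 5.03. The call of Il4i1 was lost in 6 of the 12 fits that left out 1 library (WT PBS replicate 2 or 3, WT LPS replicate 3, or any KO PBS library).

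**Figure D3:**
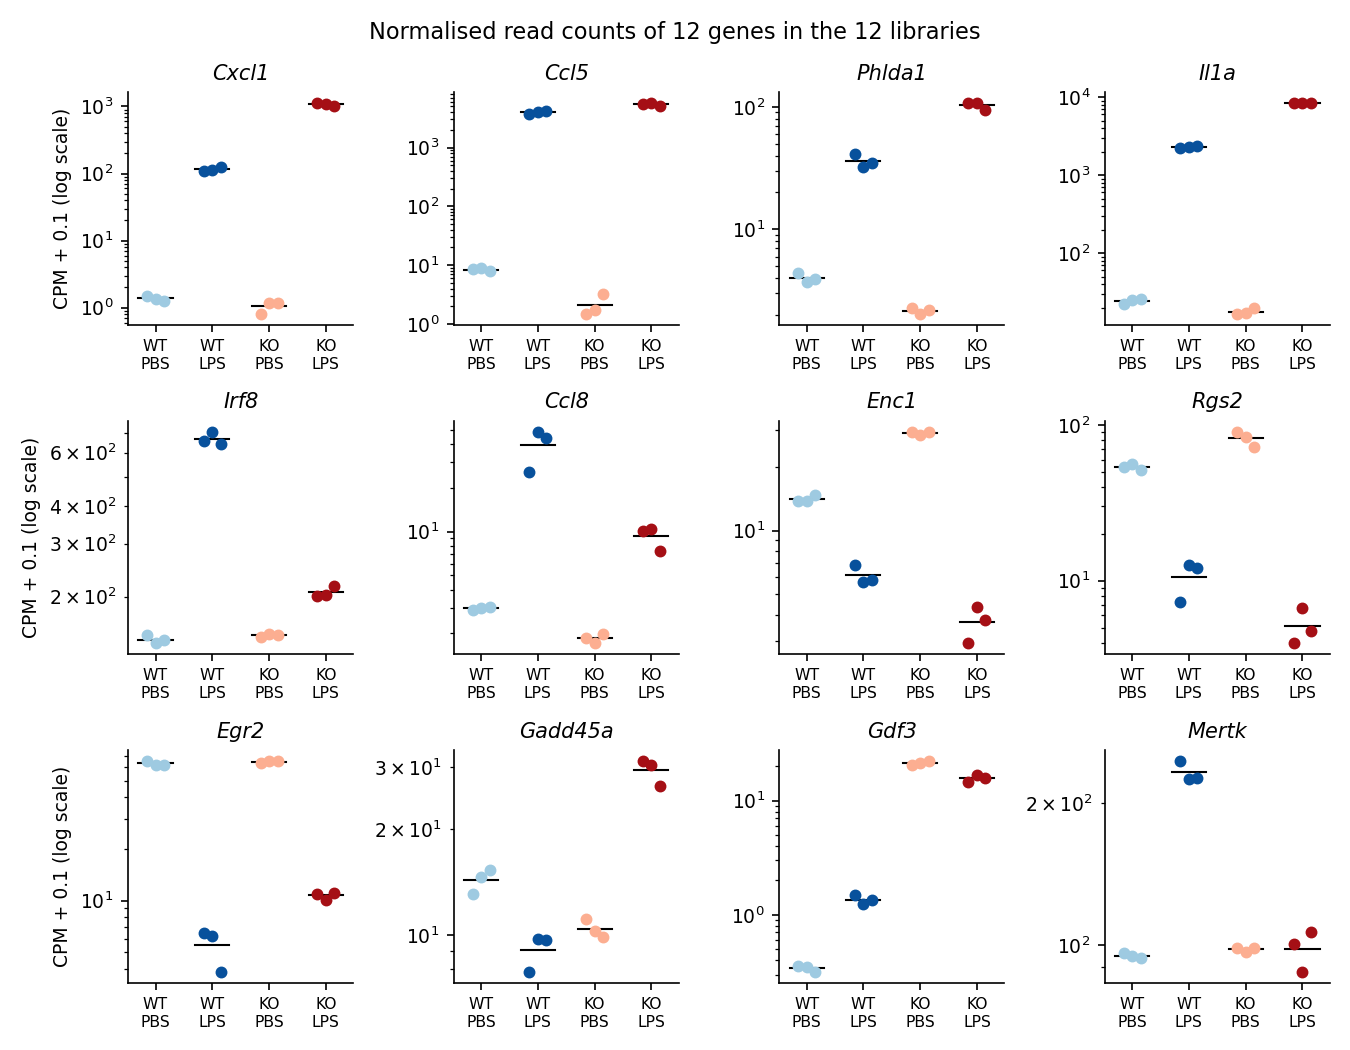
Normalised read count (CPM with 0.1 added, log scale) of 12 genes in each of the 12 libraries, 3 points per group with a line at the group mean. Cxcl1 and Il1a separate under LPS, Enc1 under both treatments and in opposite directions, Mertk and Irf8 rise in WT LPS to levels that KO LPS does not reach, and Gadd45a falls in WT and rises under the KO label.

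Fewer induced genes rose less under the KO label. Irf8, a transcription factor of the macrophage lineage (gene 15900, chromosome 8 from 120736358 to 120756694), measured 149, 140.2 and 143 CPM in WT PBS and 147, 150.2 and 149.8 CPM in KO PBS, which overlapped. With LPS it reached 657, 705 and 639 CPM in WT and 200.5, 203 and 217 CPM under the KO label, with no overlap. The response was 2.21 against 0.47, an interaction of -1.74 ± 0.08 (SE, adjusted p = 1.38e-09). With library totals alone, the KO-labelled response of Irf8 was -0.33, the WT response 1.55 and the interaction -1.88. Rubcnl, a regulator of autophagy, rose to 19.5, 25.8 and 20.98 CPM in WT and to 6.14, 5.69 and 5.78 CPM under the KO label from overlapping PBS levels, with an interaction of -1.81 ± 0.22 (SE, adjusted p = 3.55e-05). Klrg2, a lectin-like receptor, reached 6.88, 7.91 and 8.40 CPM in WT LPS against 2.70, 3.06 and 3.86 CPM in KO LPS, with an interaction of -1.82 ± 0.38 (SE, adjusted p = 0.00362). Its responses were 4.98 in WT and 3.17 under the KO label, so its PBS levels were low and rest on few counts. The chemokine Ccl8 also rose less. It measured 25.4, 48.5 and 43.7 CPM in WT LPS against 9.94, 10.3 and 7.28 CPM in KO LPS, with an interaction of -1.38 ± 0.41 (SE, adjusted p = 0.0389), but the call was lost in 9 of the 12 fits that left out 1 library, all except those without WT LPS replicate 1 or 2 or KO LPS replicate 2 (range -1.61 to -1.19). Gm16867 was nearly absent under the KO label, at 0.210, 0.0702 and 0.142 CPM with PBS and 0.368, 0.122 and 0.187 CPM with LPS, while WT libraries held 2.78, 1.86 and 1.97 CPM with PBS and 17.4, 18.1 and 14.7 CPM with LPS, and its interaction (-2.26, adjusted p = 0.0337) was lost in 6 of those fits (without WT PBS replicate 2 or 3, KO PBS replicate 1 or 3, or KO LPS replicate 2 or 3), which ran from -2.79 to -1.90.

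Among the repressed genes that fell more, Fam78a, a gene of little known function, fell from 20.3, 20.2 and 22.3 to 1.16, 0.626 and 0.903 CPM in WT and from 20.6, 18.5 and 22.1 to 0.245, 0.306 and 0.0622 CPM under the KO label. PBS libraries overlapped and LPS libraries did not, and the interaction was -2.05 ± 0.45 (SE, adjusted p = 0.00489). Enc1, an actin-binding protein, was higher under the KO label with PBS, at 29.5, 28.4 and 29.3 against 13.7, 13.8 and 14.7 CPM, and lower with LPS, at 2.82, 4.22 and 3.67 against 6.77, 5.64 and 5.75 CPM. Its interaction was -1.81 ± 0.16 (SE, adjusted p = 1.56e-06). Rgs2, which shortens signalling of G protein-coupled receptors, showed the same crossing, from 53.4, 56.2 and 51.04 to 7.23, 12.5 and 11.9 CPM in WT and from 90.7, 83.6 and 72.2 to 3.87, 6.55 and 4.66 CPM under the KO label, with an interaction of -1.68 ± 0.26 (SE, adjusted p = 0.000855). WT LPS replicate 1 was the lowest of its group for Rgs2 and the highest for Fam78a and Enc1. Nfatc2, a calcium-regulated transcription factor, reached 0.430, 0.245 and 0.311 CPM in KO LPS against 1.68, 1.20 and 1.24 CPM in WT LPS, with an interaction of -1.72 ± 0.31 (SE, adjusted p = 0.00111). Nuak1, a kinase related to AMPK, fell to 1.04, 0.512 and 1.02 CPM in WT LPS against 0.307, 0.428 and 0.311 CPM in KO LPS, an interaction of -1.64 ± 0.36 (SE, adjusted p = 0.00525). In KO LPS, Fam78a, Nfatc2 and Nuak1 lay near the floor of 0.184 to 0.187 CPM, and Fam78a fell under it in replicate 3. The sizes of these interactions thus rest on few counts. Engase, an enzyme that trims free glycans, was at the floor in KO LPS, at 0, 0.122 and 0 CPM, with 0.231, 0.399 and 0.395 CPM in WT LPS and a fitted interaction of -3.70.

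The repressed genes that fell less had smaller interactions. Egr2, a zinc finger transcription factor of alternatively activated macrophages, fell from 65.2, 61.9 and 61.8 to 6.36, 6.15 and 3.72 CPM in WT and from 62.8, 64.7 and 65.3 to 10.9, 9.98 and 11.01 CPM under the KO label. The PBS libraries overlapped, the LPS libraries did not, and the interaction was 0.94 ± 0.16 (SE, adjusted p = 0.000823). Ercc6, a DNA repair factor, fell to 4.45, 3.99 and 4.79 CPM in WT and 7.92, 7.04 and 9.20 CPM under the KO label, with an interaction of 1.03 ± 0.15 (SE, adjusted p = 0.000190). Trim16, a ubiquitin ligase, fell to 1.21, 1.20 and 1.02 CPM in WT LPS against 2.82, 2.88 and 1.99 CPM in KO LPS, with an interaction of 1.00 ± 0.23 (SE, adjusted p = 0.00635). Dlg3, a scaffold protein, differed at the PBS end instead, at 18.3, 20.1 and 18.7 CPM in WT and 10.7, 8.56 and 10.7 CPM under the KO label, with an interaction of 1.04 ± 0.16 (SE, adjusted p = 0.000365). Irs2, an adaptor of the insulin receptor, measured 5.84, 2.56 and 2.43 CPM in WT LPS, replicate 1 being the highest, against 12.2, 9.06 and 14.1 CPM in KO LPS. Its interaction was 1.12 ± 0.31 (SE, adjusted p = 0.0261), and its call was lost in 9 of the 12 fits that left out 1 library, all except those without WT LPS replicate 1, KO PBS replicate 3 or KO LPS replicate 2 (range 0.90 to 1.65).

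Genes with little average change included those that responded under one label or moved in opposite directions. Mertk, a receptor for the uptake of dying cells (gene 17289, chromosome 2 from 128698915 to 128803162), measured 96.4, 94.8 and 93.8 CPM in WT PBS and 98.4, 96.8 and 98.6 CPM in KO PBS. It rose to 246, 225 and 226 CPM in WT LPS but measured 101, 87.6 and 107 CPM in KO LPS. The response was 1.29 in WT and 0.01 under the KO label (0.63 and -0.80 with library totals alone), an interaction of -1.29 ± 0.09 (SE, adjusted p = 3.17e-07). Gadd45a, a stress-induced cell cycle inhibitor, fell in WT from 12.9, 14.5 and 15.2 to 7.75, 9.62 and 9.59 CPM and rose under the KO label from 10.99, 10.2 and 9.78 to 31.2, 30.2 and 26.3 CPM, with an interaction of 2.16 ± 0.14 (SE, adjusted p = 8.50e-08). The phosphatases Dusp4 and Ptpre had interactions of 1.64 ± 0.19 (SE, adjusted p = 2.97e-05) and 1.34 ± 0.14 (SE, adjusted p = 1.00e-05), the growth factor Pdgfb one of 1.32 ± 0.16 (SE, adjusted p = 4.72e-05) and the transglutaminase Tgm1 one of 1.97 ± 0.19 (SE, adjusted p = 4.74e-06). Ptpre reached 162, 142 and 175 CPM in KO LPS against 75.8, 55.9 and 59.4 CPM in WT LPS, with overlapping PBS libraries. On the negative side, Ppargc1b, a coactivator of mitochondrial genes, measured 8.67, 6.15 and 5.87 CPM in WT LPS against 3.01, 3.37 and 3.36 CPM in KO LPS (-1.45, adjusted p = 0.000142). Neto2, a receptor subunit (-1.17, adjusted p = 0.00922), and Gm40368 (-1.44, adjusted p = 0.00155) were higher under the KO label with PBS.

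Among genes above the floor in every group and at 5 CPM or more in the highest, Gdf3 had the most negative called interaction. For this ligand of the TGF-beta family it was -2.82 ± 0.26 (SE, adjusted p = 3.73e-06). Its level differed by 6.45 between labels under PBS and by 3.63 under LPS. In WT it measured 0.253, 0.250 and 0.214 CPM with PBS and 1.39, 1.14 and 1.24 CPM with LPS, and under the KO label 20.5, 21.4 and 22.3 CPM with PBS and 14.4, 16.7 and 15.6 CPM with LPS.

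A response called under both labels with opposite signs was found for 58 genes (0.481% of those tested), 16 up in WT and down under the KO label and 42 the other way. For 7 of them, 1 of the responses exceeded 1. The sign of a response depends on the scaling, since the median response of all genes was -0.05 in WT with TMM and -0.71 with library totals alone. Of the 58 genes, 48 were also opposite with RLE, 9 with the upper quartile and 2 with totals alone. Gadd45a (-1.32 in WT and 0.70 under the KO label) and Gdf3 (1.71 and -1.26) kept opposite signs with totals alone, whereas the KO-labelled response was 0.00042 for Tgm1 and -0.098 for Ptpre, and the WT response of Ppargc1b was -0.34.

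Gene lists of macrophage biology were then read in the same way, as counts beside those over all genes and over the induced or repressed class. The 27 lists held 437 genes tested, and 200 of these had a called interaction, 156 more positive and 44 more negative. For lists made mostly of induced genes, the share to compare with is that of the induced class, 25.8% more positive. For lists with few induced members it is that of all genes tested, 9.78% more positive and 8.26% more negative. Of 12 counts of 1 or 2 called members in a list and direction, 10 differed in a fit that left out 1 library, so such small counts are given as they stood with all libraries. The lists overlap in function and were chosen with earlier results of these data known.

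Secreted attractants made up the lists with the largest median interactions of the 27. Of 8 neutrophil-attracting CXC chemokines and colony-stimulating factors, 4 were more positive (Cxcl1, Cxcl2, Cxcl3 and Csf3), none was more negative, and 4 others did not pass. The median was 2.60, or 2.20 without the 3 members with a group at the floor. Cxcl2 measured 784, 734 and 846 CPM in WT LPS against 4138, 4038 and 3889 CPM in KO LPS, with 1.70, 2.36 and 3.11 CPM in WT and 1.61, 1.97 and 4.43 CPM under the KO label in the PBS libraries, and had an interaction of 2.20 ± 0.39 (SE, adjusted p = 0.00350). Csf2 was at 0 in all 6 PBS libraries and measured 0.405, 0.626 and 0.903 CPM in WT LPS against 11.05, 9.61 and 7.65 CPM in KO LPS, so no ratio to PBS can be given. Of 12 CC chemokines, 9 were more positive and 1, Ccl8, more negative, with a median of 1.56. The monocyte attractant Ccl2 measured 82.6, 86.9 and 86.4 CPM in WT PBS and 27.4, 28.4 and 29.9 CPM in KO PBS, then 2305, 2958 and 3096 CPM in WT and 3456, 3591 and 3039.9 CPM under the KO label with LPS. KO PBS libraries lay below WT, and 2 of the 3 KO LPS libraries above all of WT. Its interaction was 1.85 ± 0.13 (SE, adjusted p = 3.17e-07). Ccl3 measured 5933, 6302 and 6450.4 CPM in WT LPS against 13141, 13741 and 13206 CPM in KO LPS, an interaction of 1.52 ± 0.08 (SE, adjusted p = 1.85e-08). Under PBS, 9 of the 12 CC chemokines were lower by the KO label (13% of all genes tested were), and under LPS 7 were higher and 4 lower (22.1% and 19.3%).

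In the interleukin-1 family, 5 of 10 members were more positive and none more negative, with a median of 0.60. The count was 3 without WT PBS replicate 1 or 2 or KO PBS replicate 1 or 2. Il1a, an alarm cytokine, measured 22.5, 24.97 and 25.4 CPM in WT PBS and 16.4, 16.9 and 19.6 CPM in KO PBS. With LPS it reached 2229, 2281 and 2381 CPM in WT and 8309, 8416 and 8531 CPM under the KO label, with no overlap at either end, and had an interaction of 2.34 ± 0.10 (SE, adjusted p = 8.31e-10). Its antagonist Il1rn also rose more, with 5213, 6301 and 5965 CPM in WT LPS against 8316, 8187 and 8116 CPM in KO LPS and an interaction of 1.69 ± 0.10 (SE, adjusted p = 5.54e-08). Tnf measured 2482, 2568 and 2704 CPM in WT LPS against 6548, 6544 and 6837 CPM in KO LPS from overlapping PBS levels, with an interaction of 1.35 ± 0.12 (SE, adjusted p = 1.54e-06). It was 1 of 3 more positive members among 15 genes of the TNF superfamily, whose median of 0.13 turned to -0.006 with library totals alone. Of the 15, 13 were induced, and the share lies under the 25.8% of the induced class. Of 12 cytokines of the interleukin-6, -12 and -10 families, 4 were more positive and none more negative (2 more positive without WT PBS replicate 2). All 12 were induced, so the share to compare with is 25.8%. Osm, a cytokine of the interleukin-6 family, had an interaction of 1.04 ± 0.12 (SE, adjusted p = 2.62e-05), Ebi3 one of 0.49 (adjusted p = 0.00245), and Lif one of 1.97 (adjusted p = 0.0255) that was lost without WT PBS replicate 1 or 2 or KO PBS replicate 3 (1.46 to 2.34 over the fits that left out 1 library).

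Some of the most strongly induced genes were not called. Il1b measured 2353, 2157 and 2389 CPM in WT LPS against 8777, 8682 and 8198 CPM in KO LPS, with no overlap, yet its PBS level was 0.579, 0.823 and 0.751 CPM in WT and 0.490, 0.597 and 3.22 CPM under the KO label. KO PBS replicate 3 stood far above the others, and the interaction was 0.90 ± 0.75 (SE, adjusted p = 0.477). Without that library it was 2.27 (adjusted p = 1.60e-05). Il6 rose to 339, 445 and 451 CPM in WT and 1250.1, 1237 and 1149.7 CPM under the KO label from PBS levels near the floor, with counts of 3, 2 and 4 in WT PBS and 3, 1 and 13 in KO PBS. Its fitted interaction is no bound (0.70, adjusted p = 0.690) and ran from 0.19 to 2.11 over the fits that left out 1 library, the highest without KO PBS replicate 3. The subunit Il12b rose to 764, 750.2 and 824 CPM in WT and 1501, 1300.1 and 1475 CPM under the KO label, with KO PBS replicate 3 again the highest of the PBS libraries (-0.01, adjusted p = 0.978). Its interaction ran from -0.42 to 0.88 over the fits that left out 1 library. Nos2, the inducible nitric oxide synthase, reached overlapping levels of 6689, 5340.0 and 5517 CPM in WT LPS against 5890.1, 5548 and 6557 CPM in KO LPS (-0.96, adjusted p = 0.406). Its PBS counts were 13, 20 and 31 in WT and 17, 22 and 92 under the KO label. The interaction turned to 0.17 without KO PBS replicate 3 and passed at -2.08 (adjusted p = 0.00258) with that replicate as the only KO PBS library. Acod1, which makes itaconate, had an interaction of 0.50 (adjusted p = 0.416), which passed without KO PBS replicate 3 at 1.03. The chemokine Cxcl10 reached 5420.0, 6865 and 6389.7 CPM in WT LPS against 7972, 8977 and 7489 CPM in KO LPS (0.05, adjusted p = 0.967), and without both WT LPS replicate 1 and KO PBS replicate 3 it passed at 0.70. Cxcl9, a ligand of the same receptor, CXCR3, was lower under the KO label with LPS, at 55.4, 58.7 and 53.7 CPM against 78.9, 133 and 120.0 CPM, with no overlap. Its interaction of -1.13 ± 0.52 (SE, adjusted p = 0.160) did not pass in edgeR, but passed as more negative with DESeq2 and without WT LPS replicate 1. None of the 3 interferon and CXCR3 ligand genes tested was called in edgeR (1, Cxcl9, at an unadjusted p below 0.05 and with DESeq2), with a list median of 0.05. Ifnb1 held no counts in the 6 PBS libraries.

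Receptors and signalling parts of the TLR pathway had a median interaction of 0.12, against 0.0095 over all genes tested and 0.22 over the induced genes, to which 14 of the 24 members belong. Tlr4 itself measured 54.9, 58.7 and 60.2 CPM in WT PBS and 63.6, 58.1 and 61.3 CPM in KO PBS, then 31.9, 36.1 and 36.04 CPM in WT and 39.8, 35.1 and 40.3 CPM under the KO label with LPS. Its interaction was 0.07 ± 0.10 (SE, adjusted p = 0.700). Of 24 receptors, co-receptors, adaptors and kinases, 7 were more positive and 1 more negative, a share near the 25.8% of the induced class, and the median turned to -0.02 with library totals alone. Tlr2, the receptor of bacterial lipopeptides, rose to 709, 613 and 623 CPM in WT and 1169, 1189 and 1236 CPM under the KO label, with an interaction of 0.88 ± 0.09 (SE, adjusted p = 1.33e-05). Cd14 had an interaction of 0.48 (adjusted p = 0.00171), and the inhibitory kinase Irak3 one of 0.64 (adjusted p = 0.000133). Among 18 NF-κB subunits, inhibitors and A20-type genes, 10 were more positive and none more negative, with a median of 0.42. The count was 6 when 1 of these was left out: WT PBS replicate 2 or 3, WT LPS replicate 3 or KO PBS replicate 1 or 2, and 5 with library totals alone. Tnfaip3, which encodes A20, measured 1429.6, 1292 and 1324 CPM in WT LPS against 2188, 1927 and 2349.8 CPM in KO LPS and had an interaction of 0.71 ± 0.10 (SE, adjusted p = 0.000134). Traf1 had one of 1.27 ± 0.19 (SE, adjusted p = 0.000350). Nfkbia, which encodes the inhibitor IκBα, was higher under the KO label at both ends, by 0.46 with PBS and 0.29 with LPS, and its interaction of -0.17 did not pass (adjusted p = 0.295).

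Of 16 SOCS proteins, dual-specificity phosphatases and mRNA decay factors, 9 were more positive and 1 more negative, with a median of 0.42. Socs3, which blocks cytokine receptors, had an interaction of 0.59 (adjusted p = 0.0135). Dusp16 had one of 1.04 (adjusted p = 6.79e-05), and Dusp6, which acts on ERK, one of 1.25 (adjusted p = 2.09e-06) with a response of -1.41 in WT and -0.16 under the KO label. The exception was Dusp2 (-0.62, adjusted p = 0.00107). Among 17 AP-1 and other immediate early factors, 7 were more positive and 3 more negative, with a median of 0.10 that turned to -0.04 with library totals alone. Fosl2 measured 135, 106 and 113 CPM in WT LPS against 257, 206 and 283 CPM in KO LPS, with an interaction of 1.18 ± 0.16 (SE, adjusted p = 0.000138). Jun and Fos, both lower with LPS, fell more under the KO label. Jun measured 82.2, 71.97 and 72.1 CPM in WT LPS against 47.9, 50.6 and 49.7 CPM in KO LPS (-0.64, adjusted p = 0.000103), and Fos had an interaction of -0.63 (adjusted p = 0.000540).

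Most interferon-stimulated antiviral genes rose more under the KO label. All 32 measured were induced, 26 had a more positive interaction and none a more negative one, with a median of 0.70. The difference came from both ends, with 20 of the 32 lower by the KO label under PBS (median -0.45) and 17 higher under LPS (median 0.33). The count was 19 to 30 over the fits that left out 1 library and 12 with KO PBS replicate 3 as the only KO PBS library, an alternative chosen after the data were seen. Irf7, the interferon regulatory factor that amplifies interferon production, measured 112, 119 and 99.4 CPM in WT PBS and 30.2, 41.2 and 62.1 CPM in KO PBS, with no overlap and the highest KO value in replicate 3. With LPS it measured 2167, 2476 and 2505 CPM in WT and 2735, 2828 and 2526 CPM under the KO label, a difference that did not pass (adjusted p = 0.497). Its interaction was 1.49 ± 0.28 (SE, adjusted p = 0.00513). Ifit3, an RNA-binding antiviral protein, measured 10.7, 9.91 and 8.51 CPM in WT PBS and 3.75, 3.69 and 6.62 CPM in KO PBS, then 1617, 1864 and 1745 CPM in WT and 2280.4, 2331 and 2303 CPM under the KO label with LPS (1.46, adjusted p = 0.000419). The tetherin gene Bst2 differed at the PBS end, at 86.97, 92.2 and 80.3 against 39.7, 44.6 and 53.2 CPM, and its LPS libraries overlapped (1.06, adjusted p = 0.00164).

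Of 11 PYHIN genes, which encode DNA sensors, 8 were more positive and none more negative, with a median of 0.73. With LPS, 10 of these genes were higher in KO-labelled libraries and 1 lower, and with PBS 1 was higher and 2 lower. The count was 5 when replicate 2 of WT PBS, replicate 2 of KO PBS or replicate 1 of KO LPS was left out, and 3 with library totals alone. Ifi211 measured 870.0, 1077 and 992 CPM in WT LPS against 1551, 1531 and 1406 CPM in KO LPS (1.05, adjusted p = 0.000201). Of 17 interferon-inducible GTPases, 8 were more positive and none more negative, with a median of 0.50. Gbp7 measured 355, 396 and 366 CPM in WT LPS against 614, 561 and 587 CPM in KO LPS (1.08, adjusted p = 7.54e-06). Genes of MHC class I and the immunoproteasome had 3 of 12 more positive (5 without WT LPS replicate 1), with a median of 0.26. That share is near the 25.8% of the induced class, to which 11 of the 12 belong. Among the genes of MHC class II, 1 of 8 was more negative, with a median of 0.01. That call, of H2-DMb1 (-0.32, adjusted p = 0.0325), was lost in 8 of the 12 fits that left out 1 library, passing only without WT LPS replicate 1 or 2, KO PBS replicate 1 or KO LPS replicate 2. With a correction for GC content, chosen after the data were seen, 2 members of the list were more positive and 0 more negative.

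**Figure D4:**
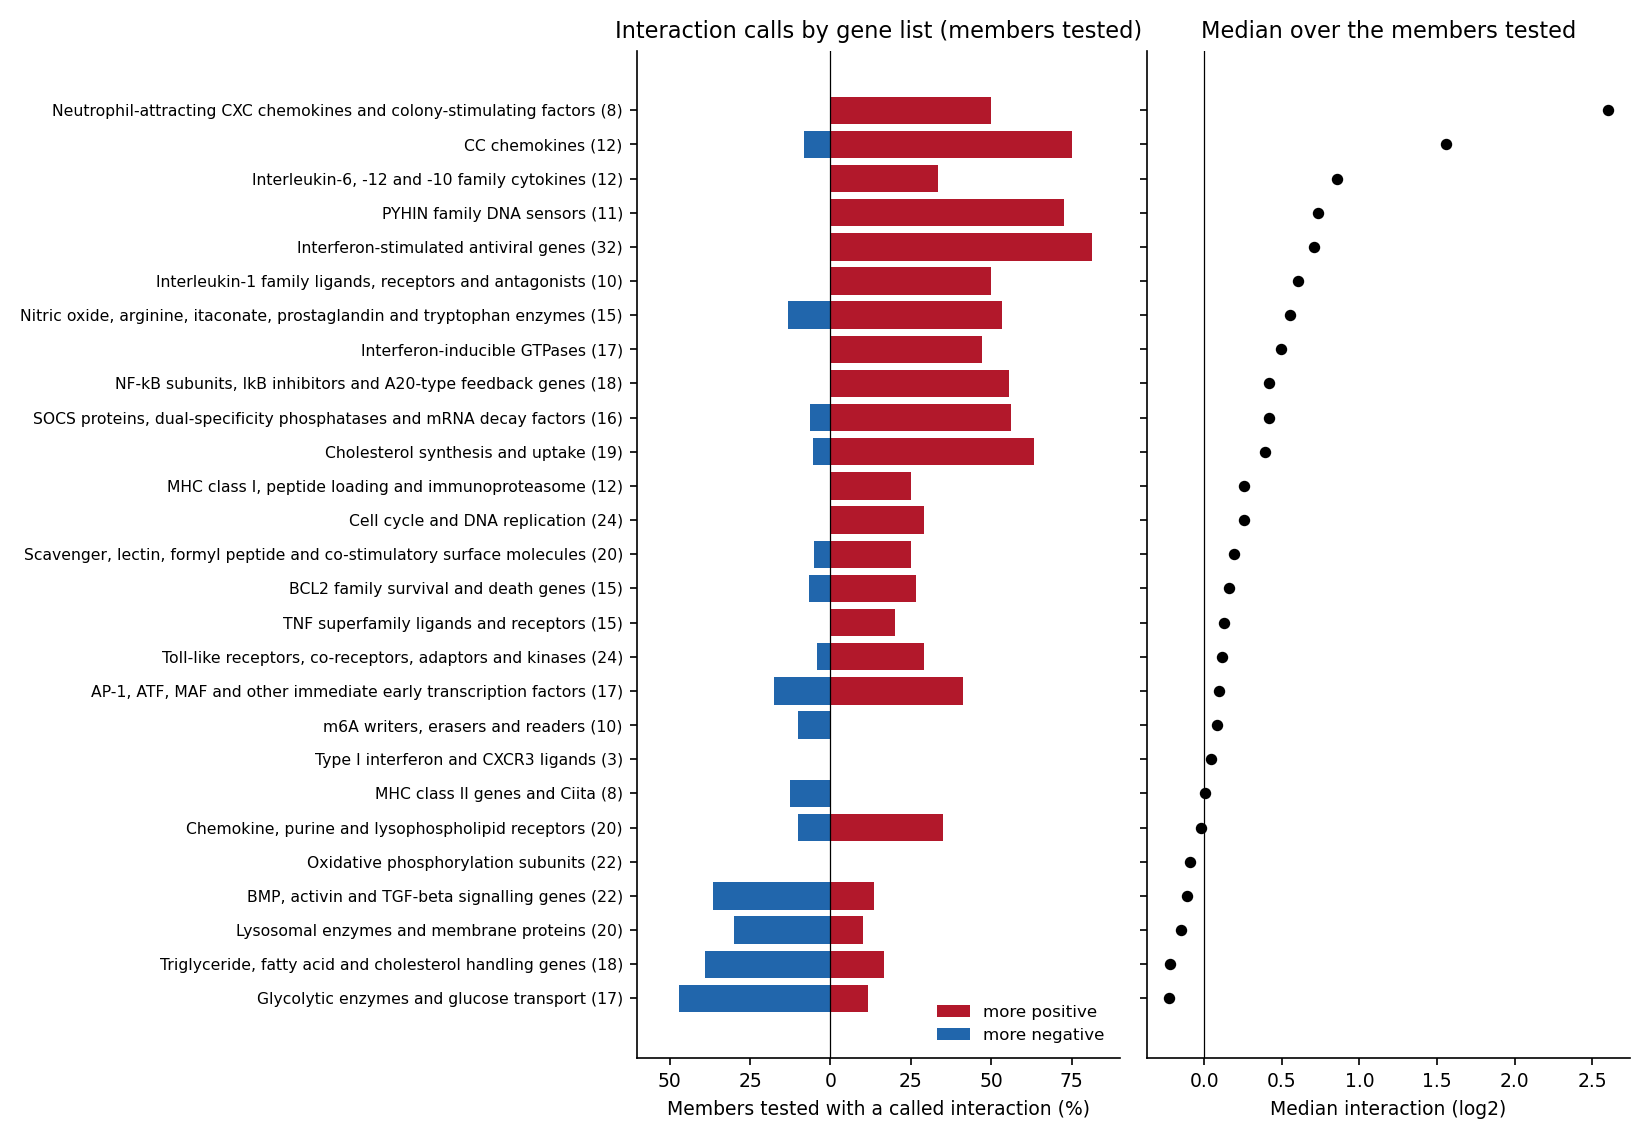
Left, percentage of the tested members of each of 27 gene lists with a called interaction, more positive to the right and more negative to the left, with the number tested in parentheses. Right, median interaction (log2) of the members. Chemokine, interferon-stimulated and interleukin lists stand at the top, and glycolysis, lipid handling and lysosome lists at the bottom.

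Effector enzymes were mostly more positive, 8 of 15 against 2 more negative, with a median of 0.55. Ptgs2, the inducible cyclooxygenase, measured 1718, 1528 and 1605 CPM in WT LPS against 4710.0, 4015 and 4877 CPM in KO LPS from PBS levels of 1.16, 1.00 and 1.11 CPM in WT and 0.770, 0.772 and 1.95 CPM under the KO label. Its interaction was 1.40 ± 0.35 (SE, adjusted p = 0.0140). Ptges, the next enzyme in prostaglandin synthesis, had one of 1.08 (adjusted p = 0.000147). The cystine transporter Slc7a11 rose to 83.9, 71.1 and 78.97 CPM in WT and 358, 301 and 361 CPM under the KO label, from 8.32, 8.94 and 8.40 CPM in WT and 10.8, 9.93 and 9.81 CPM under the KO label, an interaction of 1.87 ± 0.12 (SE, adjusted p = 1.05e-07).

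Of 20 scavenger, lectin, formyl peptide and co-stimulatory surface molecules, 5 were more positive and 1 more negative, with a median of 0.19. These shares are near the 25.8% and 4.96% of the induced class, to which 12 of the 20 belong. Marco, a scavenger receptor, was lower under the KO label at both ends, at 0.770, 1.26 and 1.38 against 8.64, 10.4 and 10.9 CPM with PBS and 9.02, 10.6 and 10.3 against 28.6, 31.3 and 37.5 CPM with LPS, and had an interaction of 1.43 ± 0.23 (SE, adjusted p = 0.000566). Of 20 chemokine, purine and lysophospholipid receptors, 7 were more positive and 2 more negative (4 without WT LPS replicate 1), with a median of -0.02. Of these receptors, 8 were induced and 7 repressed, and 9.78% and 8.26% of all genes tested were more positive and more negative. The adenosine receptor Adora2b rose to 31.5, 31.5 and 28.8 CPM in WT and 129, 114 and 115 CPM under the KO label, with an interaction of 2.23 ± 0.19 (SE, adjusted p = 1.06e-06). In the BCL2 family, 4 of 15 were more positive and 1 more negative (5 were induced and 3 repressed). The survival gene Bcl2a1a had an interaction of 2.04 ± 0.23 (SE, adjusted p = 2.62e-05). Bcl2a1a has close copies in the genome, and reads may be shared between them.

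Glycolytic enzymes ran the other way. Of 17 genes, 8 were more negative and 2 more positive, with a median of -0.22. The list held 6 induced and 2 repressed genes, and 8.26% of all genes tested were more negative. The more negative count was 2 without WT PBS replicate 3 or KO LPS replicate 1, 3 without WT PBS replicate 2 and 5 without KO LPS replicate 3. Pfkl, the liver-type phosphofructokinase, measured 53.6, 54.2 and 55.04 CPM in WT PBS and 72.5, 73.2 and 76.7 CPM in KO PBS, then 12.7, 12.01 and 12.4 CPM in WT and 9.08, 8.39 and 8.33 CPM under the KO label with LPS. The labels did not overlap at either end and changed order between them, with an interaction of -0.97 ± 0.09 (SE, adjusted p = 4.74e-06). The glucose transporter Slc2a1 and the regulatory enzyme Pfkfb3 were the 2 more positive members, but the call of Pfkfb3 (0.35, adjusted p = 0.0273) was lost in 10 of the 12 fits that left out 1 library, passing only when replicate 1 of WT LPS or replicate 2 of KO LPS was the one omitted, and it was also lost with library totals alone. Slc2a1 rose to 117, 94.7 and 101 CPM in WT and 181, 173 and 181 CPM under the KO label (1.07, adjusted p = 2.31e-06). Among 18 genes of triglyceride, fatty acid and cholesterol handling, 7 were more negative and 3 more positive, with a median of -0.22 (4 were induced and 5 repressed). The more negative count fell to 2 without KO LPS replicate 1, 3 without WT LPS replicate 3 and 4 without WT PBS replicate 2 or 3 or KO LPS replicate 3, and without WT LPS replicate 1 there were 5 more positive. The cholesterol exporters Abca1 and Abcg1 parted. Abca1 was lower under the KO label with PBS, at 18.3, 21.9 and 25.8 against 89.9, 85.5 and 94.9 CPM, and also with LPS, at 109, 88.4 and 116 against 156, 119.5 and 122 CPM, where the gap was smaller (a difference of -0.34 against -2.03). It had an interaction of 1.69 ± 0.19 (SE, adjusted p = 4.78e-05). Abcg1 measured 231, 201 and 209 CPM in WT LPS against 62.4, 58.8 and 71.1 CPM in KO LPS, an interaction of -1.06 ± 0.10 (SE, adjusted p = 4.06e-06).

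Cholesterol synthesis and uptake genes were more positive in 12 of 19 cases and more negative in 1, with a median of 0.39. Only 2 of the 19 were induced and 4 were repressed, so the share to set beside the 12 is the 9.78% of all genes tested. Under PBS, 15 of the 19 were lower in KO-labelled libraries. Cyp51, a sterol demethylase, measured 96.9, 99.2 and 95.4 CPM in WT PBS and 99.8, 99.4 and 95.7 CPM in WT LPS. Under the KO label it rose from 69.97, 67.8 and 66.6 to 128, 116 and 118 CPM, with an interaction of 0.81 ± 0.08 (SE, adjusted p = 5.07e-06). Sqle, squalene epoxidase, fell in WT from 86.1, 87.1 and 84.9 to 44.9, 37.3 and 38.6 CPM and went from 64.1, 62.2 and 60.2 to 54.9, 52.4 and 59.9 CPM under the KO label, with an interaction of 0.94 ± 0.10 (SE, adjusted p = 1.29e-05). The exception was Dhcr7, which makes the last step of cholesterol synthesis (-0.70, adjusted p = 0.000989).

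Of 24 cell cycle and DNA replication genes, 7 were more positive and none more negative, with a median of 0.26. The list held 3 induced and 8 repressed genes, and the share of more positive calls was 9.78% over all genes tested and 2.79% among repressed genes. The count was 4 without KO PBS replicate 2 or KO LPS replicate 2. In this list 21 of 24 genes were lower by the KO label under PBS and 14 under LPS. Mki67, a marker of cycling cells, was higher under the KO label with LPS and lower with PBS. In WT it measured 7.63, 10.7 and 11.8 CPM with PBS and 18.4, 12.4 and 12.4 CPM with LPS, and under the KO label 6.55, 4.84 and 6.62 CPM with PBS and 47.6, 35.4 and 48.1 CPM with LPS, an interaction of 2.35 ± 0.29 (SE, adjusted p = 0.000222). Ccne1, the G1 cyclin E1, had an interaction of 1.66 ± 0.20 (SE, adjusted p = 3.49e-05). In these bulk samples, fewer cells of a kind and less RNA per cell cannot be told apart.

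Genes of BMP, activin and TGF-beta signalling were more negative in 8 of 22 cases and more positive in 3, with a median of -0.11 (6 were induced and 4 repressed, and 8.26% of all genes tested were more negative). The more negative count was 4 without KO LPS replicate 1 and 5 without WT PBS replicate 2 or 3 or WT LPS replicate 1, and the more positive count was 1 without WT PBS replicate 1 and 5 without WT LPS replicate 1. Here the label differed already with PBS, where 10 of the 22 genes had a higher level. Skil, an inhibitor of SMAD proteins, measured 18.98, 17.7 and 17.4 CPM in WT PBS and 46.6, 42.6 and 46.02 CPM in KO PBS, and 96.6, 101 and 103 CPM in WT and 152, 129.8 and 153 CPM under the KO label with LPS, an interaction of -0.80 ± 0.10 (SE, adjusted p = 6.09e-05). Id3, a target of BMP signals, had one of -0.62 (adjusted p = 0.00307). The 3 more positive members were Gdf15, Inhba and Acvr1b, the last 2 not called without WT PBS replicate 1. Gdf15, a stress-induced cytokine, rose to 93.98, 85.3 and 89.1 CPM in WT and 230.4, 247 and 229 CPM under the KO label, with an interaction of 1.24 ± 0.08 (SE, adjusted p = 1.28e-07).

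Lysosomal genes were more negative in 6 of 20 cases and more positive in 2, with a median of -0.15. In this list 1 gene was induced and 4 were repressed, and 8.26% of all genes tested were more negative. The more negative count was 3 without WT PBS replicate 3 or KO LPS replicate 1 and 12 with library totals alone. Lipa, the lysosomal acid lipase, had an interaction of -0.49 (adjusted p = 0.00132), and Tfeb, the transcription factor of lysosomal genes, one of -0.52 (adjusted p = 0.0107). None of 22 subunits of oxidative phosphorylation was called in edgeR with TMM, all libraries and the main filter, and their median was -0.09. There were 2 at an unadjusted p below 0.05, 2 called with DESeq2, and 5, all more negative, with library totals alone. With TMM, 2 were called as more negative without WT LPS replicate 1, 1 without KO LPS replicate 2 and 1 with at least 10 counts in every library. Of 10 m6A writers, erasers and readers, 1, Ythdf1 itself, was called in edgeR with TMM and all libraries, with a response of 2.21 in WT and 1.79 under the KO label and an interaction of -0.42 ± 0.08 (SE, adjusted p = 0.00177). A member of the list was called as more positive when replicate 1 of WT LPS or replicate 2 of KO LPS was left out, and 2 were called as more negative with library totals alone. The median of that list was 0.08, and -0.05 with library totals alone.

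Among markers of cell identity, 2 of 10 general macrophage genes were more positive (Adgre1 and Cd14) and 3 more negative (Cd68, Csf1r and Mertk), none of 5 fibroblast markers was called in edgeR (0 also at an unadjusted p below 0.05 and with DESeq2), and 1 of 7 markers of resident peritoneal macrophages was (Icam2, more negative). Leaving out 1 library ended the call of Adgre1 in 3 of 12 fits (without WT PBS replicate 1 or KO PBS replicate 1 or 2), of Cd68 in 2 (without WT PBS replicate 3 or KO LPS replicate 1) and of Icam2 in 7, all except those without WT PBS replicate 1, WT LPS replicate 1 or 3 or KO LPS replicate 1 or 2. Of 3 neutrophil markers tested, Csf3r was more negative (-0.36, adjusted p = 0.00421), being higher under the KO label at both ends, by 0.73 with PBS and 0.38 with LPS. The only mast cell marker tested, the stem cell factor receptor Kit, was more positive. It measured 0.796, 0.608 and 0.751 CPM in WT PBS and 0.175, 0.421 and 0.213 CPM in KO PBS, then 1.10, 1.20 and 1.02 CPM in WT and 3.44, 2.82 and 3.42 CPM under the KO label with LPS, with no overlap at either end and an interaction of 2.94 ± 0.39 (SE, adjusted p = 9.77e-05). Of 3 dendritic cell markers tested, 1 was more positive, the chemokine receptor Ccr7, which had a group at the floor (0 to 2 counts in KO PBS). It measured 7.98, 9.22 and 9.25 CPM in WT LPS against 10.6, 10.1 and 9.70 CPM in KO LPS, and its call was lost without WT PBS replicate 1 or KO PBS replicate 1. None of the tested markers of B cells (1), T cells (4), mesothelium (7) or eosinophils (2) was called in edgeR, at an unadjusted p below 0.05 or with DESeq2. Of the 10 skeletal muscle markers, 4 were called as more negative and all 10 were lower by the KO label under LPS, with 8 of the 10 at the floor in a group. With KO PBS replicate 3 as the only KO PBS library, so that both KO-labelled groups hold almost no muscle transcripts, 933 genes had a called interaction. Genes called both there and with all libraries had the same sign. The fit with this single KO PBS library shares all its libraries with the main fit, so this is no separate check. In that fit 250 induced genes rose more and 65 less, and 244 repressed genes fell more and 24 less. Most lists lost calls there. The more positive count was 3 of 18 for NF-κB subunits and inhibitors, 4 of 16 for SOCS proteins, phosphatases and decay factors, 3 of 11 for PYHIN genes, 5 of 17 for interferon-inducible GTPases, 5 of 15 for effector enzymes, 3 of 24 for TLR signalling, 2 of 11 for the interleukin-1 family, 2 of 12 for the interleukin-6, -12 and -10 families, 1 of 15 for the TNF superfamily, 4 of 18 for AP-1 and immediate early factors, 3 of 20 for scavenger and other surface molecules, 2 of 15 for the BCL2 family, 4 of 24 for cell cycle genes, 0 of 12 for MHC class I and, as given above, 12 of 32 for the antiviral genes. The more negative count was 2 of 17 for glycolysis, 2 of 18 for lipid handling, 4 of 22 for BMP and TGF-beta signalling and 3 of 20 for lysosomal genes. Smaller shifts were seen for the CC chemokines (7 of 12 more positive), the neutrophil chemokines and colony-stimulating factors (4 of 9), cholesterol synthesis (9 of 19) and the chemokine and purine receptors (6 of 20). Of the called genes named here, Acvr1b, Adgre1, Ccl8, Ccr7, Cd14, Cd68, Ebi3, Gm16867, Icam2, Il4i1, Inhba, Irs2, Klrg2, Pfkfb3, Ptgs2, Slc1a2 and Socs3 did not pass there.

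**Figure D5:**
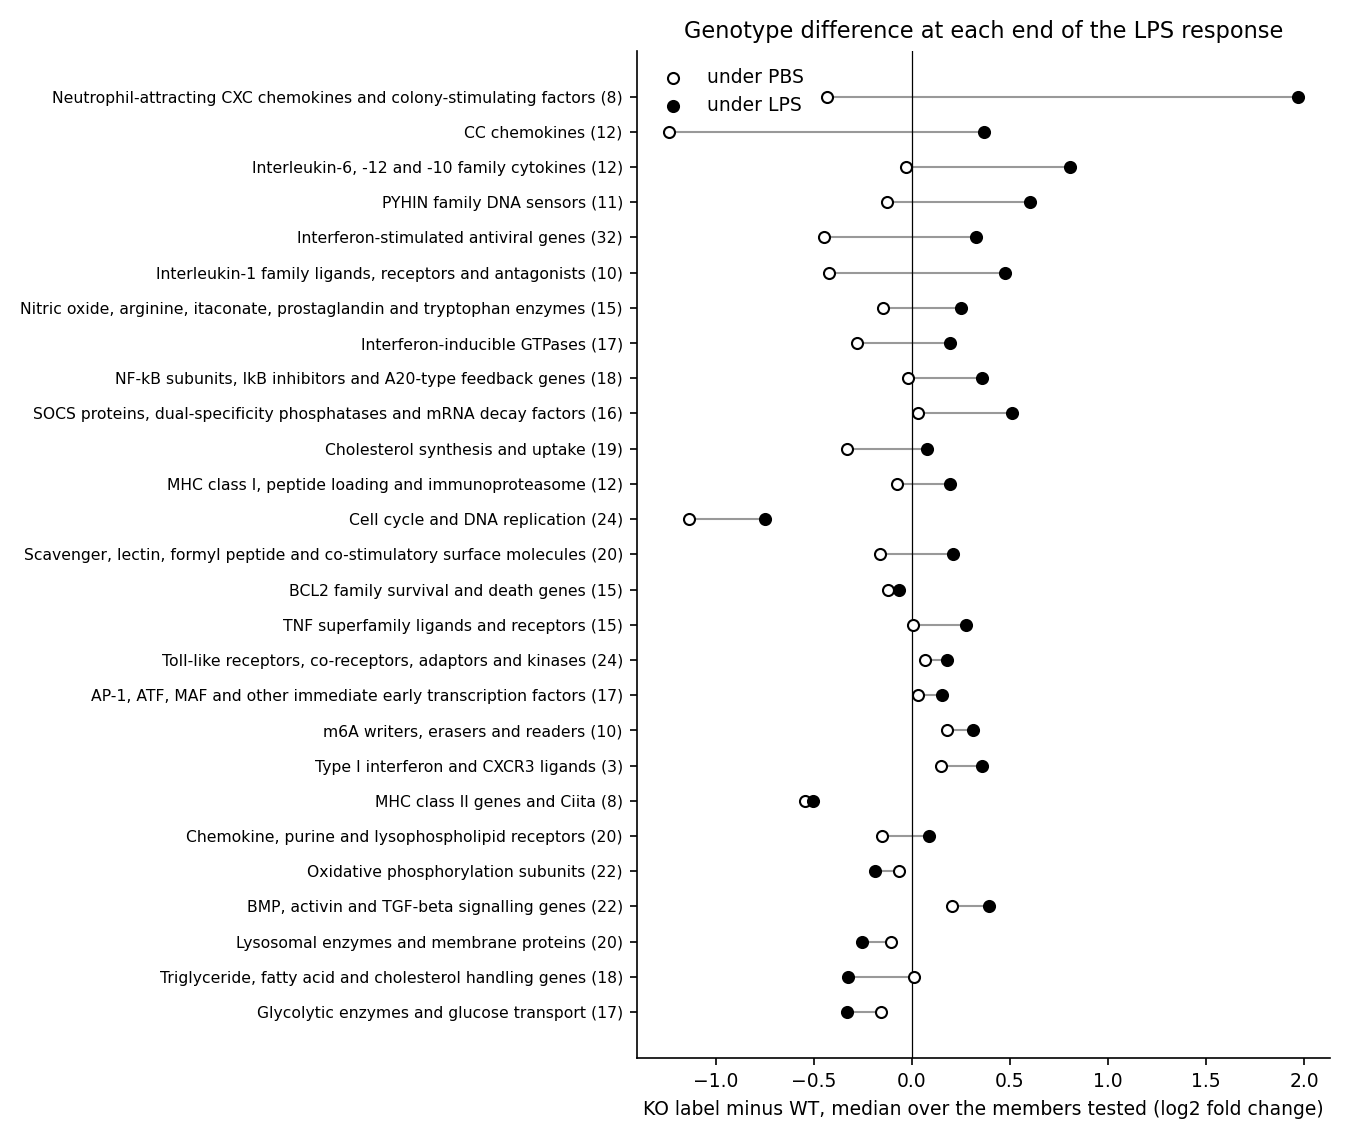
Median difference between the KO label and WT (log2 fold change) over the tested members of each gene list, under PBS (open circles) and under LPS (filled circles). The lists are ordered by their median interaction. The 2 chemokine lists and the interferon-stimulated genes lie left of 0 with PBS and right of 0 with LPS, at -0.45 and 0.33 for the antiviral genes, whereas cell cycle genes lie left of 0 at both ends.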

How the data were processed

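The 12 deposited tables held expected counts per gene, made by the authors from single-end reads of 50 bases on a BGISEQ-500. The submitters' processing notes name Bowtie2, RSEM 1.3.1 and GRCm38.p6, whereas the study's methods name STAR and HTSeq, and the values carry decimals, as those of RSEM do. They were rounded to whole counts. All 12 libraries entered 1 edgeR 4.0.16 fit (R 4.3.3, filterByExpr, TMM, robust quasi-likelihood, group means), with two-sided tests and Benjamini-Hochberg adjustment over the 12064 genes tested at 0.05. The fit was tested on simulated data. CPM used TMM-scaled library sizes. Totals of 21546274 to 22017005 counts limit low genes, for which 3 counts was the floor. 

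Named were, per class, the 5 genes with the largest called interaction among those with at least 5 CPM in the highest group and all group means above the floor, the 4 largest with a group at the floor, and members of 27 lists. Other genes in the text were chosen after their values were seen. Members and lists were chosen with earlier results of these data known. Alternatives were RLE, upper-quartile and total scaling, filters, DESeq2 1.42.0, class sizes, a replicate block, leaving out libraries, and, chosen after seeing the data, a lowess correction for GC content (span 0.3, values for 96.97% of genes) and KO PBS replicate 3 as the only KO PBS library. RefSeq names and promoters were matched by gene ID (16803 of 16920 genes).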

Additional observations from a re-analysis of the deposited data

Results flagged for a closer look

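The LPS response differed between the genotype labels, by the interaction term of the edgeR fit, for 2176 genes and for each of the genes named by the rule for this comparison. Interactions are given on the log2 scale, as the KO-labelled response minus the WT response.

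Among induced genes that rose more under the KO label these were Cxcl1 (3.661), Cxcl3 (3.004), Steap4 (2.539), Ccl5 (2.501) and Phlda1 (2.431). Among induced genes that rose less they were Gm16867 (-2.26), Klrg2 (-1.816), Rubcnl (-1.81), Irf8 (-1.74) and Ccl8 (-1.377). Repressed genes that fell more were Fam78a (-2.054), Enc1 (-1.806), Nfatc2 (-1.722), Rgs2 (-1.685) and Nuak1 (-1.637), and repressed genes that fell less were Irs2 (1.124), Dlg3 (1.041), Ercc6 (1.028), Trim16 (1.001) and Egr2 (0.9438).

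Genes with little average change or opposite responses were Gadd45a (2.161), Tgm1 (1.974), Dusp4 (1.645), Ptpre (1.343), Pdgfb (1.324), Gdf3 (-2.824), Ppargc1b (-1.447), Gm40368 (-1.439), Mertk (-1.286) and Neto2 (-1.167). With a group at the floor, so that the fitted value is no bound, they were Csf3 (5.261), Il4i1 (5.03), Engase (-3.702) and Slc1a2 (2.931). Of these 34 genes, 28 were called under each of the alternatives tried. The others were Gm16867, Ccl8, Irs2, Il4i1, Klrg2 and Slc1a2, the last 2 of which were lost only with KO PBS replicate 3 as the single KO PBS library.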

How the results depend on the processing

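The count of called interactions (2176) was 2157 with RLE scaling, 2161 with the upper quartile, 2572 with library totals alone, 1963 without a filter, 2152 with at least 10 counts in every library, 2301 with DESeq2 and 2209 after a GC correction, which was chosen after the data were seen. Scaling moved the balance of directions. The upper quartile gave 683 repressed genes that fell more. Library totals alone gave 627 more positive and 1945 more negative calls, 285 induced genes that rose more, 1273 repressed genes that fell more and 254 little changed genes with a more positive interaction. In the same setting the medians turned negative for the lists of the TNF superfamily (-0.006), AP-1 factors (-0.0426), TLR signalling (-0.0210) and m6A regulators (-0.054), the last also after the GC correction (-0.0032).

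With KO PBS replicate 3 as the only KO PBS library, which assumes that it varies like the other groups, there were 933 calls (425 more positive and 508 more negative). They held 250 induced genes that rose more and 65 that rose less, 244 repressed genes that fell more and 24 that fell less, 151 and 199 little changed genes and 31 opposite ones. Fewer libraries enter that fit. Leaving out 1 library in turn gave 1551 calls (without KO LPS replicate 1) to 2685 (without WT LPS replicate 1). More positive calls ranged from 738 to 1552, repressed genes that fell less from 43 to 105, and little changed genes from 287 to 768 (more positive) and from 278 to 571 (more negative).

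Classes set by any called average response held 895 genes that rose more, 202 that rose less, 746 that fell more, 188 that fell less, and 97 and 48 others. At a size of at least 2 they held 361, 49, 181 and 18, with 766 others more negative. Set by the WT response, which is not independent of the interaction, they held 490, 136, 328 and 104. Replicate numbers did not pair the samples (r = -0.076 to 0.127 for same-numbered libraries, 1 of 18 over 0.1), and a replicate block gave 2132 calls, 1170 more positive and 962 more negative. Il4i1 did not pass in it (5.03, adjusted p = 0.0539), and 1 m6A regulator passed as more positive. Of 232 called genes among the named and listed ones, 124 passed throughout and 72 were lost in a fit without 1 library. The cause of these shifts was not tested. At 3 libraries a group, 89.5% of simulated interactions of 1 were recovered. The simulation gave all genes the same spread, placed changes only in genes with higher counts and held no outlying library. It therefore does not give the share recovered in these data. Genes near the floor carry no bound.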
